A study of Mus musculus with 12 samples.

Results

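The genes described here are 10 genes of the endoplasmic reticulum (ER) stress response in newborn mouse bladder: Xbp1, Atf4, Ddit3, Hspa5, Hsp90b1, Pdia4, Dnajb9, Herpud1, Trib3 and Asns. They were taken by name, as every probe set annotated to that symbol alone, which gave 23 of the 45101 probe sets of the array and 10 of its 18193 named genes. The samples were whole bladders taken at postnatal day 1 from FVB/N mice, all labelled male, and each of the 12 was hybridised unpooled to its own one-colour Affymetrix array. The 3 SMGA/EGFP samples carried enhanced green fluorescent protein under the smooth muscle gamma actin (Actg2) promoter. The 3 SMAA/EYFP samples carried enhanced yellow fluorescent protein under the smooth muscle alpha actin (Acta2) promoter. The 6 wild-type samples carried neither reporter. Both promoters are active in smooth muscle, so the reporter is made in only some of the cells of a whole bladder, and a change limited to those cells is diluted here by RNA of the others. Transgenic litters came from FVB/N females mated to transgenic males, so genotype, sire and litter cannot be told apart. The comparison with wild type asks whether either reporter comes with an unfolded protein response.

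Proteins that enter the ER are folded there by chaperones, and unfolded protein is sensed by IRE1, PERK and ATF6. Active IRE1 splices Xbp1 mRNA, PERK slows translation while favouring that of ATF4, and ATF6 is cleaved to a transcription factor. The resulting factors raise chaperones, enzymes that carry misfolded protein to degradation, and, through ATF4, genes of amino acid supply and of cell death. ATF4 also acts outside ER stress, when amino acids are short. The arrays measure the amount of each mRNA. They do not measure Xbp1 splicing, translation of Atf4 or cleavage of ATF6.

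The promoters of 4 of the genes are shown because they hold the sequences through which this response is known to act. Each is the 250 bases before the RefSeq start of the gene on GRCm38.p6, written 5' to 3' on the strand of the gene, with motif matches in capitals. The windows are chr2:34771840-34772089 on the plus strand for Hspa5, chr10:86705445-86705694 on the minus strand for Hsp90b1, chr8:94386179-94386428 on the plus strand for Herpud1 and chr6:7693210-7693459 on the minus strand for Asns.
Hspa5: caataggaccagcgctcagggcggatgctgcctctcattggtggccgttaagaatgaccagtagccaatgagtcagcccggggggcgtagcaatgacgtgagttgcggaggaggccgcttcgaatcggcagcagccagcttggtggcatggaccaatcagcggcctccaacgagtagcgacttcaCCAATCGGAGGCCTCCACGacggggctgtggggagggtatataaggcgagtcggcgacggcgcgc
Hsp90b1: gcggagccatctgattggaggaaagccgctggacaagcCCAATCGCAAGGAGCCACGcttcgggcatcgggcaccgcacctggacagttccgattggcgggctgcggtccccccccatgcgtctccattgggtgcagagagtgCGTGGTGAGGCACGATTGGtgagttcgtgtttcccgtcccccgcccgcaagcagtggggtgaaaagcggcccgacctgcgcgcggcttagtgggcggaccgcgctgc
Herpud1: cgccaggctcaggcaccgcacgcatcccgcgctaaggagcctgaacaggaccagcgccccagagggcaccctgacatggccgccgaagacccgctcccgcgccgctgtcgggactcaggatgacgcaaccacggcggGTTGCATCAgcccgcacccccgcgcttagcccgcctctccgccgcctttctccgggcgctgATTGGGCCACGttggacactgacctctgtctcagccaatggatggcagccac
Asns: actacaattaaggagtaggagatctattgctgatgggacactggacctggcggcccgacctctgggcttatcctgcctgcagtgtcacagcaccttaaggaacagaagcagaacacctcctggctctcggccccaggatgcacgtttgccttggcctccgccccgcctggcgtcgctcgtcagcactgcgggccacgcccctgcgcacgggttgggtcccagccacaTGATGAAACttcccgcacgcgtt
The ER stress element, known to be used by ATF6, was searched as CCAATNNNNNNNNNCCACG on both strands of the window from 250 bases before to 50 bases after the start. It matched 39 of 32851 RefSeq promoters (0.119%), among them Hspa5 (bases -65 to -47) and Hsp90b1 (bases -212 to -194, and -107 to -89 on the other strand). The second form of that element, ATTGGNCCACG, matched 12 promoters (0.0365%), among them Herpud1 at bases -52 to -42. The C/EBP-ATF composite element, through which ATF4 is known to act, was searched as TGATGNAAN and matched 1299 promoters (3.95%). It was present in Asns at bases -23 to -15, in Herpud1 at bases -113 to -105 on the other strand, and in Trib3 on the other strand at bases 14 to 22 after the start. In the order given, these sequences matched 2, 1 and 3 of the 10 genes, and Xbp1, Atf4, Ddit3, Pdia4 and Dnajb9 had no match. No match shown overlapped another. A match is a description of these letters and not evidence of a factor bound there.

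Neither reporter came with a change in any of the 10 genes that passed the test. Against wild type, 0 of 10 passed at an adjusted p of 0.05 in SMGA/EGFP and 0 of 10 in SMAA/EYFP (limma, Benjamini-Hochberg over 22518 probe sets, two-sided). Over all probe sets tested, 0.0622% passed in the first comparison and 0% in the second. At an unadjusted p under 0.05 the counts were again 0 of 10 and 0 of 10, beside 6.94% and 4.81% of all probe sets. The median difference of the 10 genes on the log2 scale was -0.03 for the green reporter (SMGA/EGFP) and -0.05 for the yellow one (SMAA/EYFP), beside medians of -0.01 and 0.00 over all probe sets tested. For both transgenic groups together against wild type, 0 of 10 passed (0.00444% of all probe sets), 0 of 10 reached an unadjusted p under 0.05 (4.18%), and the median difference was -0.01. Adjusted p-values of the 10 genes lay between 0.746 and 0.973 in SMGA/EGFP and between 0.991 and 0.998 in SMAA/EYFP. A p that misses the threshold does not show that the levels were equal, and the 95% intervals given for each gene below, which are limma's and not adjusted for the number of genes, bound the changes these arrays leave room for. All levels and differences are on the scale of log2(intensity + 16) after quantile normalization, which understates changes of dim genes, and SE is limma's moderated standard error.

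**Figure D1:**
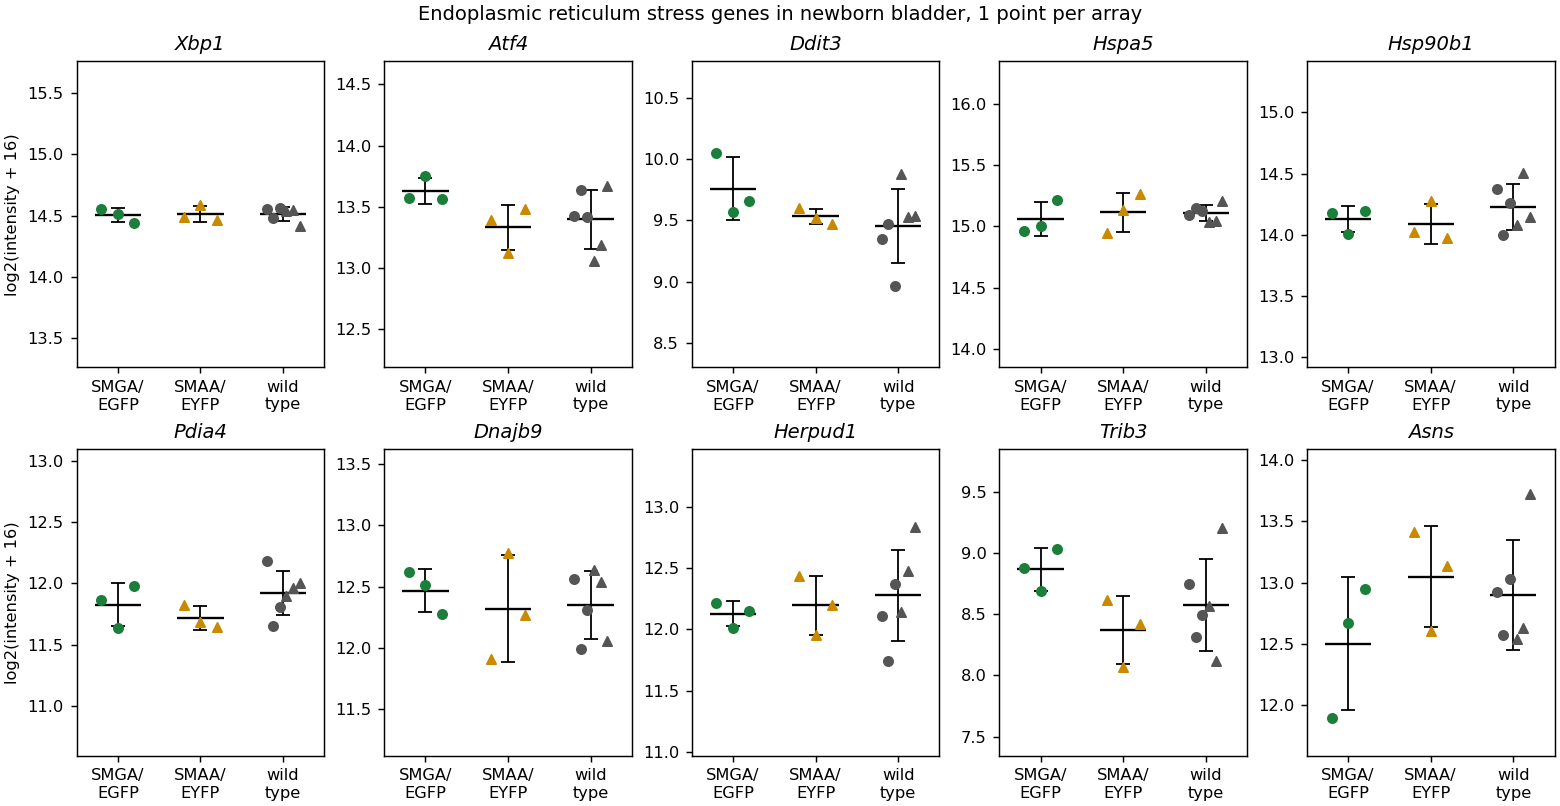
Level of each of the 10 genes on the 12 arrays, as log2(intensity + 16), with 1 point per array, the group mean as a line and the SD as an error bar. Every panel spans the same range of log2 units, circles are the first run of record numbers and triangles the second. Xbp1 and Hspa5 vary little, whereas Asns runs from 11.89 in SMGA/EGFP 1 to 13.72 in wild type 6.

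Some arrays and markers bear on all that follows. Smooth muscle markers (Acta2, intensity 52418 to 71735, and Myh11) and urothelial markers (Upk3a, intensity 27581 to 43169, and Upk1a) were bright on all 12 arrays. Wild type 4, labelled male like the rest, had Xist at an intensity of 29604 against 80.1 to 250.4 on the other arrays, and the Y-linked Uty at 48.6 against 724.5 to 1199. The record numbers fall into a first run (SMGA/EGFP and wild type 1 to 3) and a second run (SMAA/EYFP and wild type 4 to 6), and the labels do not say whether the arrays were processed in these runs. Of the marker lists of other cell types, the mesothelial one had members past the threshold: 3 of 6 were lower in SMGA/EGFP than in wild type, and the mean deviation of the 6 over an array, in log2 units, was -1.45 to -1.15 in SMGA/EGFP, 0.43 to 1.24 in SMAA/EYFP and -0.14 to 0.75 in wild type. Several other lists leaned one way in at least 1 reporter group, with 0 members past the threshold. Urothelial markers were higher than wild type in 10 of 10 for SMAA/EYFP (median 0.22) and 9 of 10 for SMGA/EGFP (0.13). Endothelial markers were lower in 8 of 8 for SMAA/EYFP (-0.30) and 7 of 8 for SMGA/EGFP (-0.21). Markers of macrophages and leukocytes were lower in 5 of 8 (-0.08) and 8 of 8 (-0.25), in the same order. Those of neurons and Schwann cells were higher in 5 of 6 for SMAA/EYFP (0.10) and 5 of 6 for SMGA/EGFP (0.78). Fibroblast and matrix markers were lower in 7 of 8 (-0.11) and 6 of 8 (-0.01), and skeletal muscle markers in 6 of 6 (-0.31) and 4 of 6 (-0.10), in that order. Mast cell markers were lower in 3 of 3 for SMGA/EGFP (-0.39) and 1 of 3 for SMAA/EYFP (0.03). Smooth muscle markers were lower in 6 of 8 for SMGA/EGFP and 5 of 8 for SMAA/EYFP, with a median of -0.02 in each. Some lists had more than 1 marker at an unadjusted p under 0.05 (limma). In SMAA/EYFP these were 4 of 10 urothelial and 3 of 6 mesothelial markers, beside 4.81% of all probe sets. In SMGA/EGFP they were 4 of 6 mesothelial, 3 of 8 endothelial, 3 of 8 macrophage or leukocyte and 2 of 3 mast cell markers, beside 6.94%. The part of these cell types in the differences below was not tested. In a whole organ, fewer cells of a type and less RNA per cell cannot be told apart.

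Among the transcription factor genes, Xbp1, the target of IRE1 splicing, was the steadiest of the 10. Its log2 level was 14.56, 14.51 and 14.44 in SMGA/EGFP and 14.49, 14.59 and 14.46 in SMAA/EYFP, and in wild type the lowest, median and highest were 14.41, 14.54 and 14.56. The 3 groups overlapped. The difference from wild type was -0.01 ± 0.05 (SE) in SMGA/EGFP and 0.00 ± 0.05 in SMAA/EYFP, with fold intervals of 0.915 to 1.08 and 0.919 to 1.08. Only 1.22% of the probe sets tested had a smaller SD within groups. The 4 probe sets of Xbp1 did not vary together between arrays (r from -0.24 to 0.25, n = 12 arrays). The dimmest of them read 9.37, 9.25 and 9.44 in SMAA/EYFP against at most 9.14 in wild type, a difference of 0.31 ± 0.13 (adjusted p = 0.991 in limma). The arrays of these groups did not overlap for that probe set, while the 3 brighter ones gave no such separation.

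Atf4, whose protein is made when PERK or an amino acid sensor slows translation, read 13.57, 13.75 and 13.57 in SMGA/EGFP. It read 13.40, 13.12 and 13.48 in SMAA/EYFP, and 13.06, 13.42 and 13.67 as lowest, median and highest in wild type. Of the 3 SMGA/EGFP arrays, 2 lay within the wild-type range and 1 above it, and all 3 were above every SMAA/EYFP array. The difference from wild type was 0.23 ± 0.13 in SMGA/EGFP (95% interval -0.05 to 0.51, adjusted p = 0.746 in limma) and -0.07 ± 0.13 in SMAA/EYFP (-0.35 to 0.21). Against only wild type of its own run, the SMGA/EGFP difference was 0.14 and that of SMAA/EYFP 0.03.

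Ddit3, which encodes the pro-death factor CHOP, was among the dimmer members. Its level was 10.05, 9.57 and 9.66 in SMGA/EGFP, 9.60, 9.52 and 9.47 in SMAA/EYFP, and 8.96, 9.50 and 9.88 as lowest, median and highest in wild type. SMGA/EGFP 1 was the highest array and wild type 3 the lowest, and the groups overlapped. The difference from wild type was 0.30 ± 0.18 in SMGA/EGFP (95% interval -0.08 to 0.69, fold up to 1.61, adjusted p = 0.758 in limma) and 0.08 ± 0.18 in SMAA/EYFP (-0.31 to 0.46). Within wild type, Ddit3 was lower on all 3 arrays of the first run than on any of the second, with means of 9.26 and 9.65. No other member separated these wild-type arrays by its brightest probe set, although the dimmer probe set of Herpud1 did. No share over all probe sets is given beside this, and an effect of run was not tested. Against wild type of their own run the SMGA/EGFP difference was 0.48 and that of SMAA/EYFP -0.12, and neither passed the threshold. Without SMGA/EGFP 1 the difference from wild type was 0.16.

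Among the chaperones, Hspa5 had the narrowest interval. It encodes BiP, the chaperone that holds the sensors inactive, and is the classical target of ATF6. Its level was 14.96, 15.00 and 15.22 in SMGA/EGFP, 14.95, 15.14 and 15.26 in SMAA/EYFP, and 15.04, 15.11 and 15.21 as lowest, median and highest in wild type. All 3 groups overlapped, and the 12 arrays spanned 1.24-fold. SMGA/EGFP differed from wild type by -0.05 ± 0.07 and SMAA/EYFP by 0.01 ± 0.07, so the 95% intervals in fold were 0.868 to 1.08 and 0.901 to 1.12. The deposited intensity of this probe set was 32262 to 39387 while the brightest probe set of an array reached 62957 to 80313, and a compressed response near the top of the scale was not tested. Of its dimmer probe sets, the next brightest varied with it (r = 0.57, n = 12 arrays) and the dimmest in the opposite sense (r = -0.58).

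Hsp90b1, the ER form of HSP90, read 14.18, 14.00 and 14.20 in SMGA/EGFP, 14.03, 14.27 and 13.97 in SMAA/EYFP, and from 14.00 to 14.51 in wild type. Its differences from wild type were -0.10 ± 0.11 and -0.14 ± 0.11, with upper 95% bounds of 1.09-fold and 1.07-fold. The other probe set of Hsp90b1 gave 0.02 ± 0.15 and 0.01 ± 0.15, with wider upper bounds of 1.27-fold and 1.26-fold. The correlation between these probe sets was r = 0.36 (n = 12 arrays). Pdia4, a disulfide isomerase, read 11.86, 11.63 and 11.98 in SMGA/EGFP, 11.82, 11.68 and 11.64 in SMAA/EYFP, and from 11.65 to 12.18 in wild type. Both groups again overlapped with wild type. Its differences were -0.09 ± 0.12 and -0.20 ± 0.12, with upper bounds of 1.12-fold and 1.04-fold. Dnajb9 encodes ERdj4, a co-chaperone of BiP and a target of XBP1. It read 12.62, 12.51 and 12.27 in SMGA/EGFP, while SMAA/EYFP held both its lowest array (11.91) and its highest (12.78), and wild type ran from 11.99 to 12.64. The differences were 0.12 ± 0.19 and -0.03 ± 0.19, with intervals of 0.822- to 1.43-fold and 0.742- to 1.29-fold.

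Herpud1, a membrane protein of ER-associated degradation, read 12.21, 12.02 and 12.15 in SMGA/EGFP and 12.44, 11.96 and 12.20 in SMAA/EYFP. Wild type held both extremes, with 11.74 in wild type 2, a median of 12.26 and 12.83 in wild type 6. The differences from wild type were -0.15 ± 0.19 and -0.08 ± 0.19. Within runs they were 0.05 for SMGA/EGFP and -0.29 for SMAA/EYFP, and without wild type 6 they were -0.04 and 0.03. The 2 probe sets of Herpud1 varied together (r = 0.89, n = 12 arrays).

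Of the ATF4 targets, Trib3, a pseudokinase, was the dimmest of the 10. It read 8.88, 8.69 and 9.03 in SMGA/EGFP, 8.62, 8.07 and 8.42 in SMAA/EYFP, and 8.12, 8.53 and 9.21 as lowest, median and highest in wild type. The differences from wild type were 0.29 ± 0.23 (95% interval -0.20 to 0.78) and -0.20 ± 0.23 (-0.69 to 0.28). Without wild type 6, its highest array, they were 0.42 and -0.08. Its other probe set gave -0.15 in SMGA/EGFP, the opposite sign. Asns, asparagine synthetase, varied most. It read 11.89, 12.67 and 12.95 in SMGA/EGFP, 13.41, 12.60 and 13.13 in SMAA/EYFP, and 12.54, 12.78 and 13.72 as lowest, median and highest in wild type. The 3 groups overlapped while the 12 arrays spanned 3.56-fold. The difference from wild type was -0.40 ± 0.27 in SMGA/EGFP (95% interval -0.99 to 0.19, adjusted p = 0.783 in limma) and -0.10 without SMGA/EGFP 1. In SMAA/EYFP it was 0.15 ± 0.27 (-0.44 to 0.73), -0.03 without SMAA/EYFP 1 and 0.37 without SMAA/EYFP 2. Without wild type 6, the highest array, the differences were -0.23 in SMGA/EGFP and 0.31 in SMAA/EYFP.

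**Figure D2:**
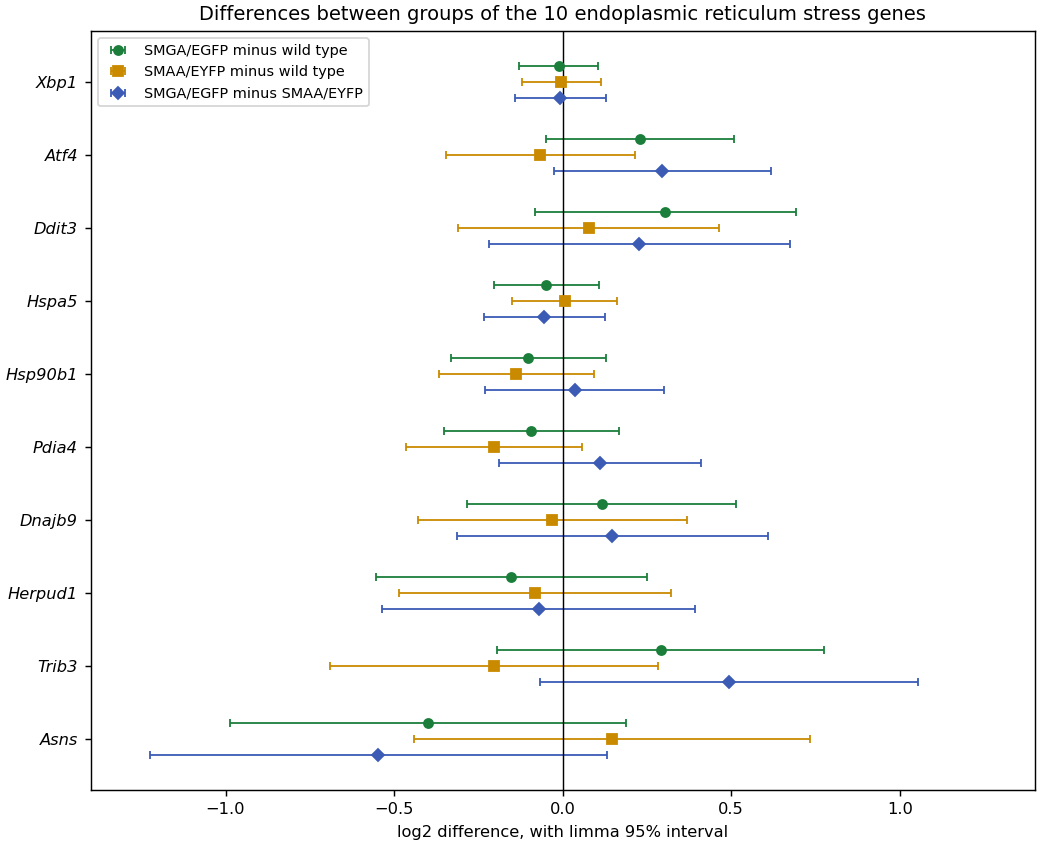
Differences between groups of the 10 genes in log2 units, with limma's unadjusted 95% intervals as bars, for SMGA/EGFP against wild type (circles), SMAA/EYFP against wild type (squares) and SMGA/EGFP against SMAA/EYFP (diamonds). All 30 intervals include 0, and those of Xbp1 and Hspa5 are the narrowest.

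The direct comparison of the reporters also gave 0 of 10 past the threshold (0.0799% of all probe sets) and 0 of 10 at an unadjusted p under 0.05 (9.32%). The median difference, SMGA/EGFP minus SMAA/EYFP, was 0.07, beside -0.02 over all probe sets. The arrays of the reporters did not overlap for 2 of 10 genes, Atf4 (0.30 ± 0.15, adjusted p = 0.567 in limma) and Trib3 (0.49 ± 0.26, adjusted p = 0.580). Over all probe sets 14.5% were apart in this way, so 2 of 10 is near the background. Against wild type the groups were apart for 0 of 10 in SMGA/EGFP (2.73% of all probe sets), 0 of 10 in SMAA/EYFP (3%) and 0 of 10 in both together (0.151%). The second probe set of Atf4 also separated the reporters, whereas that of Trib3 did not. These comparisons share arrays, and the run of record numbers lies along the same division as the reporters. With run as a block the Atf4 difference was 0.11 and that of Trib3 0.61.

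The wider pathway was read from a list of 99 other genes in 6 groups, of which 96 had a probe set and 92 were tested. Of these, 0 passed the threshold in either direction in any of the 4 comparisons. At an unadjusted p under 0.05 there were 3 of 92 in SMGA/EGFP (6.94% of all probe sets), 0 in SMAA/EYFP (4.81%), 3 between the reporters (9.32%) and 0 for both together (4.18%), each count below the background share. Those 3 in SMGA/EGFP were Dnajb11, a BiP co-chaperone (0.30 ± 0.12), Kdelr2, a receptor that returns ER proteins from the Golgi (-0.14 ± 0.06), and Vldlr, a lipoprotein receptor regulated by ATF4 (0.51 ± 0.23), with adjusted p between 0.712 and 0.718 in limma. They differed in sign. Groups were apart for 1 of 92 in SMGA/EGFP (Selenos; 2.73% of all probe sets), 2 in SMAA/EYFP (Dnajc3 and Spcs3; 3%), 14 between the reporters (14.5%) and 0 for both together (0.151%). The 14 are near the background share and are no result about the pathway.

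By group, the 10 sensors and factors such as Ern1 (IRE1; 0.17 ± 0.22 in SMGA/EGFP and 0.03 ± 0.22 in SMAA/EYFP) and Atf6 (-0.07 ± 0.11 and 0.06 ± 0.11) had median differences of -0.02 and 0.04. The 17 other chaperones and folding enzymes had medians of 0.02 and 0.00. Among them Pdia6 was at -0.20 ± 0.10 in SMGA/EGFP and Dnajc3, a co-chaperone that restrains PERK, at 0.23 ± 0.12 and 0.18 ± 0.12. The 14 genes of ER-associated degradation tested had medians of -0.01 and 0.00, with Syvn1, the ubiquitin ligase HRD1, at -0.04 ± 0.10 and -0.10 ± 0.10. The 19 secretory pathway targets of XBP1 had medians of -0.07 and -0.01, with 12 of 19 lower in SMGA/EGFP, among them Sec61a1, the translocation channel, at -0.12 ± 0.07. The 28 other ATF4 and amino acid response genes tested had medians of -0.06 and 0.03, with Sesn2 at 0.56 ± 0.30 in SMGA/EGFP. The 5 cell death genes tested had medians of 0.27 and 0.01. Of these, 4 of 5 were higher in each reporter group and 3 of 5 in both together, beside 47.1%, 50.8% and 47.8% of all probe sets, with Pmaip1 at 0.40 ± 0.28 and 0.31 ± 0.28. None of these genes passed the test.

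**Figure D3:**
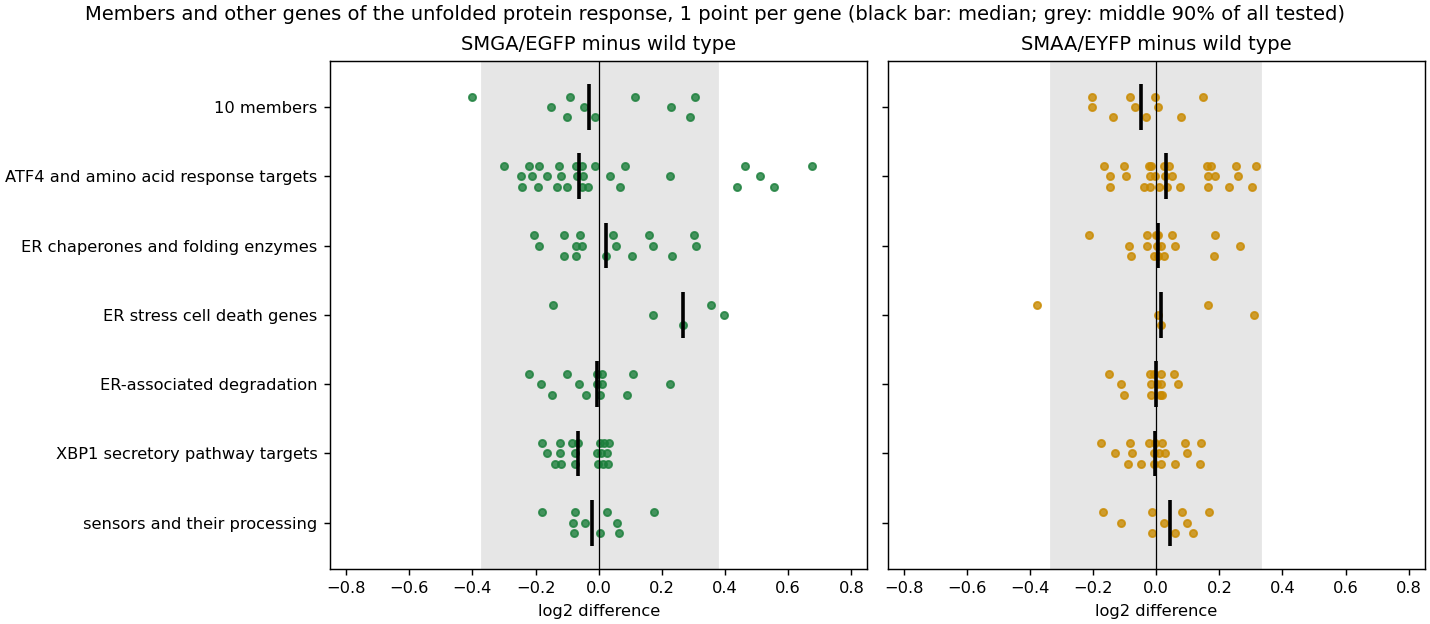
Log2 difference from wild type of the 10 genes and of the 6 groups of other pathway genes, 1 point per gene, for SMGA/EGFP (left) and SMAA/EYFP (right). Black bars are group medians and the grey band holds the middle 90% of all probe sets tested, and most points lie in it.

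Wild type 6 was the highest of the 12 arrays for Asns (13.72, against 11.89 to 13.41 elsewhere), Herpud1 (12.83, against 11.74 to 12.48) and Trib3 (9.21, against 8.07 to 9.03). On the same array Ddit3 (9.54) and Hspa5 (15.21) were inside the range of the others, and Dnajb9 was 0.45 below their median. Xbp1 was the lowest of all by its brightest probe set (14.41), whereas another of its probe sets was at its highest there (12.77). This array was singled out after its values were seen.

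The other ATF4 and amino acid genes divided in the same way. Wild type 6 was the highest array for 18 of 28 (64.3%), beside 8.8% of all probe sets tested. Mthfd2, a mitochondrial folate enzyme, lay 1.65 log2 units above the median of the other arrays, Slc7a11, the cystine transporter, 1.35, Chac1, which degrades glutathione, 1.34, and Slc7a5, a carrier of large neutral amino acids, 0.81. Sesn2 went the other way and was at its lowest there, 1.06 below that median. Of the 17 other chaperones and folding enzymes, wild type 6 was the highest array for 1 (5.88%), and of the 14 degradation genes for 0.

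Across the 12 arrays Asns moved with some of the listed genes of amino acid supply. Its correlation passed a permutation test with 100000 resamples, adjusted over the 28 listed genes, for 12 of them, all positive, and 7 passed by Spearman's rho. The highest were Phgdh, the first enzyme of serine synthesis (r = 0.91, p = 6e-05, adjusted p = 0.000747; rho = 0.90, p = 0.00014, adjusted p = 0.0014), Slc7a5 (r = 0.90, p = 3e-05, adjusted p = 0.000747; rho = 0.90, p = 0.00015, adjusted p = 0.0014) and Gars, the glycyl-tRNA synthetase (r = 0.89, p = 8e-05, adjusted p = 0.000747; rho = 0.95, p = 1e-05, the smallest these resamples can give, adjusted p = 0.00028). In the first and the second run separately r was 0.93 and 0.91 for Phgdh, 0.90 and 0.92 for Slc7a5 and 0.97 and 0.92 for Gars. Without the 2 arrays farthest from the median of Asns, SMGA/EGFP 1 and wild type 6, it was 0.79, 0.87 and 0.72. Not all listed genes took part. Of other amino acid genes, Sars (r = 0.46), Shmt2 (r = 0.40), Cth (r = 0.34) and Aldh18a1 (r = 0.25) did not pass, whereas the transcription factor Atf5 did (r = 0.84). Atf3, a stress-induced factor, had r = 0.00, and Ddit4, an inhibitor of mTOR signalling, r = -0.58 (adjusted p = 0.0898, permutation test). Over all 20069 named probe sets tested the median r with Asns was 0.06 and 14.4% exceeded 0.5, beside a median of 0.56 and 15 of 28 (53.6%) in the list. With wild type 6 left out, 8 of 28 passed and 13 of 28 exceeded 0.5, with a median of 0.37.

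Of 3 array measures compared with Asns, 1 passed. The log2 median intensity of an array had r = -0.75 with Asns (p = 0.00519, adjusted p = 0.0156 over the 3 array measures, permutation test; rho = -0.66, p = 0.0235), -0.80 and -0.76 in the 2 runs, and -0.44 without the 2 farthest arrays. With both genes taken as residuals on that median, 11 of 28 passed and 18 of 28 exceeded 0.5, against 7.16% of all named probe sets. The 3-prime over 5-prime ratios of the Gapdh and Actb controls had r of 0.03 and -0.07 with Asns over the 12 arrays (p = 0.918 and 0.826, permutation test). Within the runs these relations had opposite signs, at -0.49 in the first and 0.78 in the second for Gapdh and at -0.41 and 0.73 for Actb. The part of RNA quality in the pattern was not tested. Over 12 immediate early and handling genes the mean deviation was 0.54 in wild type 6 and 0.56 in SMAA/EYFP 1, the 2 arrays of highest Asns, and between -0.62 and 0.40 on the others. The part of handling in the pattern was not tested.

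**Figure D4:**
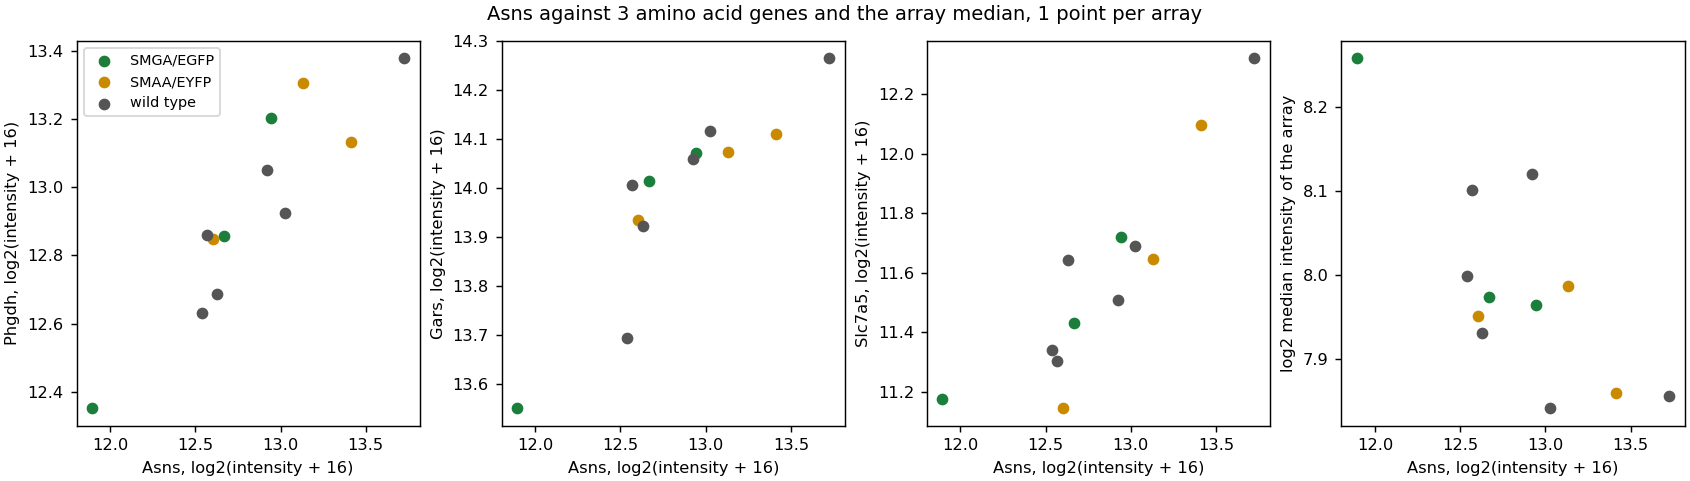
Asns on each of the 12 arrays, as log2(intensity + 16), against Phgdh, Gars and Slc7a5 on the same scale and against the log2 median intensity of the array, coloured by group. The 3 genes climb with Asns (r = 0.91, 0.89 and 0.90) and the array median falls with it (r = -0.75), with arrays of every group along the course.

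Among the 10 genes themselves, 0 of 45 pairs passed after adjustment (permutation test with 100000 resamples, n = 12 arrays). The largest r was that of Xbp1 with Dnajb9 (r = 0.76, p = 0.00515, adjusted p = 0.232; rho = 0.73, p = 0.00896, adjusted p = 0.403), at 0.62 and 0.84 within the runs and 0.78 without the 2 farthest arrays. Next in size were 2 negative pairs, Dnajb9 with Asns (r = -0.65) and Xbp1 with Asns (r = -0.63), and then Hsp90b1 with Pdia4 (r = 0.63), each at an adjusted p of 0.309. Herpud1 with Asns had r = 0.60 (adjusted p = 0.309), and 0.30 without wild type 2 and wild type 6. With each array centred on its median in place of quantile normalization, 6 of 45 pairs passed. The highest r of these was that of Hspa5 with Asns (r = 0.90, adjusted p = 0.00585, permutation test). After quantile normalization that pair had r = 0.43 (adjusted p = 0.416), so its result depended on the normalization.

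Over all named probe sets tested, the 5 genes closest to Asns by Pearson's r over the 12 arrays were Mthfd1l (0.95), Nars (0.94), Abce1 (0.94), Gcnt3 (0.93) and Arf2 (0.93). Those closest to Hspa5 were Samd5 (0.89), Zdhhc5 (0.89), 9930012K11Rik (0.88), Kif20b (0.88) and Kntc1 (0.88). Those closest to Ddit3 were Mtmr3 (0.92), H2aw (0.88), Tcp11l2 (0.87), Adck5 (0.85) and Vps53 (0.85). These are the highest of 20069 values each and are given as descriptions.

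**Figure D5:**
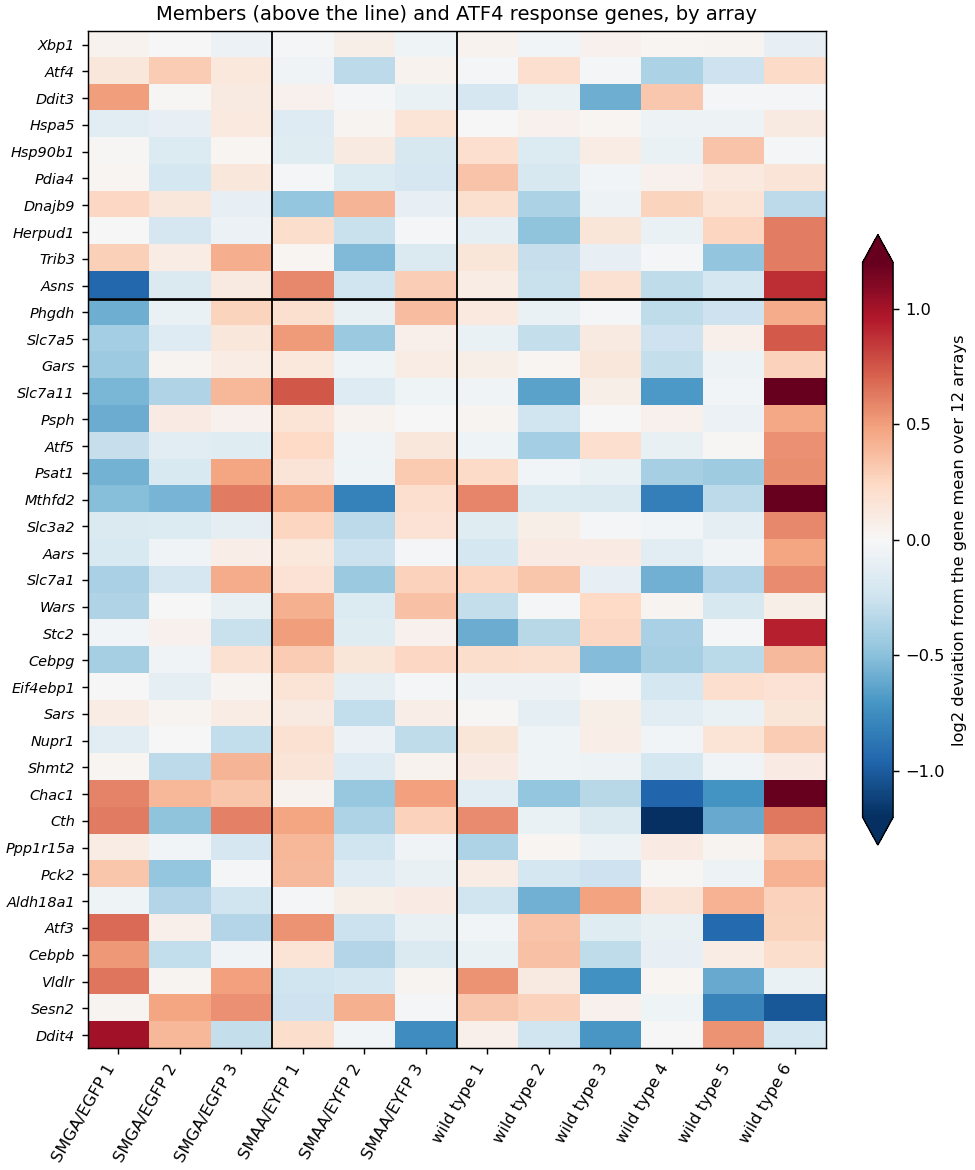
Deviation of each gene from its own mean over the 12 arrays, in log2 units, for the 10 genes (above the line) and the 28 other ATF4 and amino acid response genes tested, ordered by their correlation with Asns. Columns are arrays and colours saturate beyond the ends of the scale. Wild type 6 is high and SMGA/EGFP 1 low for most of the genes nearest to Asns.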

How the data were processed

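Per the labels' protocols, RNA of each whole bladder was purified with RNeasy, put through 1 round of amplification and labelled with biotin. The authors deposited 1 linear intensity for each probe set, and the labels name GCOS as the software; its version and algorithm are not given in the sources used here. In the values, every array has nearly the same mean over its 2nd to 98th percentile (1499.55 to 1499.59). The number of arrays (3, 3 and 6) limits the precision.

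After 64 controls were left out, log2(intensity + 16) was quantile-normalized between the 12 arrays. The 22518 probe sets with a mean above the median (log2 8.02) entered limma (version 3.58.1, R version 4.3.3; lmFit, then eBayes with trend; all arrays in 1 fit; Benjamini-Hochberg). The fit and the correlation step were tested on simulated data. Nothing in the labels says that arrays of a group came from separate litters, so p-values measure the spread between these samples.

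Of the 23 probe sets of the 10 genes, 20 were tested; 3 dim ones (of Atf4, Ddit3 and Pdia4) were not. Each gene was represented by its brightest probe set. Symbols are those of the platform annotation in GEO, and promoters are from RefSeq (GRCm38.p6), where all 10 genes had a promoter. Named were the 10 genes, up to 3 genes of smallest p per pathway list and reporter, and the 5 genes closest to Hspa5, Ddit3 and Asns; genes named for their correlation with Asns, their level in wild type 6, or groups that do not overlap were chosen after their values were seen. The members and lists were chosen with earlier results of these data known. Alternatives covered normalization, pseudocount, filter, variance model, array weights, run, choice of probe set and left-out arrays.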

Additional observations from a re-analysis of the deposited data

Results flagged for a closer look

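In 4 of the 41 genes looked at, the 10 members among them, 1 wild-type array lay far from the other 5, by the gap to its nearest neighbour over the range of the group (critical value 0.625; chance marks about 1 in 20). These were Creb3 in wild type 1 (0.652; log2 12.12, nearest 12.32), Atf6b in wild type 4 (0.677; 9.75, nearest 9.97), Wfs1 in wild type 1 (0.743; 10.97, nearest 11.32) and Selenos in wild type 6 (0.639; 12.72, nearest 13.04). All 4 were low on that array. None of the 10 members was marked in this way.

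Bcl2, an inhibitor of cell death, was above the wild-type mean on all 3 SMGA/EGFP arrays (difference 0.35) and below it on all 3 SMAA/EYFP arrays (-0.38). The reporters differed by 0.733 ± 0.274 (adjusted p = 0.477 in limma), which did not pass the threshold.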

How the results depend on the processing

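Over the 26 or 27 alternatives of each comparison, 0 of the members and 0 of the other pathway genes tested passed; the stricter filter left 8 members, without Ddit3 and Trib3, and the lowest adjusted p of a member was 0.340 (limma). Of the 1052 member values, 62 changed sign, none past the threshold. With arrays centred on their median, which moved the median of all probe sets in SMGA/EGFP minus SMAA/EYFP from -0.02 to -0.12, the median of the members there was -0.072 in place of 0.073, and 6 of 45 member pairs correlated in place of 0; the cause was not tested. With each array left out in turn the median of the members ran from -0.05 to -0.01 in SMGA/EGFP, from -0.07 to -0.02 in SMAA/EYFP, from 0.03 to 0.11 between the reporters and from -0.04 to 0.01 for both together. Without wild type 4 and 6, chosen after seeing the data, 0 of 10 passed, and Trib3 in SMGA/EGFP was 0.45 and Ddit3 0.43. Counts over all probe sets moved more. In SMGA/EGFP against wild type, 14 passed, 5 with the stricter filter, 8 with only the arrays compared, 1 with wild type of the same run, 3 without wild type 4 and 6, and 6 to 20 with an array left out. In SMAA/EYFP against wild type, 5 passed in place of 0 with median centring and with array weights. Between the reporters 18 passed, 10 with the stricter filter, 2 with run as a block and 4 to 21 with an array left out, the fewest without SMAA/EYFP 2. For both together 1 passed, 3 with array weights and 0 with median centring, with the median over probe sets and without wild type 4 and 6. Correlations with Asns that passed ranged from 8 to 18 of 28. No paired analysis was possible because replicates were numbered in accession order. With 3 arrays per reporter, changes within the intervals given, or limited to a few cells, could be missed. Larger changes could be missed too, because the intervals are unadjusted and the calls were adjusted over all probe sets. For the mesothelial marker Msln, a difference of -1.41 ± 0.30 in SMGA/EGFP had an adjusted p of 0.300 in limma.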
